A study of Mus musculus with 7 samples.

Results

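The 6 Siglec receptor genes Siglech, Siglec1, Siglece, Siglecg, Cd33 and Cd22 were chosen as a gene family, by symbol, from the 50686 genes of the deposited tables, by a rule that uses no measured value although earlier results of these data were known, and all 6 passed the filter on low counts that left 17559 genes for testing. They were measured by RNA-seq in microglia of 4 Young (3 to 4 months) and 3 Old (21 to 22 months) C57BL/6 male mice, 1 library per mouse. All 7 mice had 45 min of middle cerebral artery occlusion, a model of ischemic stroke, and microglia were sorted by FACS at day 4 with antibodies to CD11b and CD45 and with Bodipy, a dye of neutral lipids, so that every library holds Bodipy+ cells rich in lipid droplets. No mouse without ischemia and no Bodipy-negative fraction is among these libraries, which limits the groups to an age comparison within ischemic, lipid-laden cells. The libraries are named by the animal codes in the labels, 14C, 18C, 23C and 29C for Young and 2posI, 3posI and 4posI for Old.

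Siglecs are cell surface lectins of immune cells that bind sialic acid, the sugar that caps many glycans. Most carry inhibitory ITIM motifs in their cytoplasmic tail, which recruit the phosphatases SHP-1 and SHP-2 and dampen activation when the receptor meets sialylated self glycans. Others signal through the activating adaptor DAP12, encoded by Tyrobp, or have no signaling motif of their own. In the brain these receptors are studied as brakes on microglial phagocytosis and inflammation. Siglech is a DAP12-coupled receptor used as a marker of microglia, and outside the brain of plasmacytoid dendritic cells. Cd33 and Siglece are receptors of myeloid cells, and Siglece carries ITIM motifs. Siglecg and Cd22 are inhibitory receptors best known from B cells. Siglec1, also called sialoadhesin or CD169, is a macrophage lectin that is induced by interferon.

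Siglech, Cd33 and Siglece were the members whose levels moved together from mouse to mouse (described below), so the 250 bases before their RefSeq start sites (build GRCm38.p6, gene strand, 5' to 3') are shown here. Capitals mark the letters GAGGAA or their reverse complement TTCCTC, the core of the site bound by PU.1, the lineage factor of myeloid cells. The Siglech window is at chr7:55767934-55768183 (plus strand), the Cd33 window at chr7:43533172-43533421 (minus strand) and the Siglece window at chr7:43660162-43660411 (minus strand).
Siglech: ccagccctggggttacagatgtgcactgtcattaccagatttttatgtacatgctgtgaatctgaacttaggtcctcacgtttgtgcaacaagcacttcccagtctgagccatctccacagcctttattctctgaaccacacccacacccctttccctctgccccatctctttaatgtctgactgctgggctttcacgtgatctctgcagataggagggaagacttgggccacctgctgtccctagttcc
Cd33: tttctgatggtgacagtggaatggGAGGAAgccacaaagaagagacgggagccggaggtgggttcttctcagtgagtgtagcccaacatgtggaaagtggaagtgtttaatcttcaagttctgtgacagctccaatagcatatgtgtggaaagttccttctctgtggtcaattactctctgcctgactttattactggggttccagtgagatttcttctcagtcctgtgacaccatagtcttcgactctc
Siglece: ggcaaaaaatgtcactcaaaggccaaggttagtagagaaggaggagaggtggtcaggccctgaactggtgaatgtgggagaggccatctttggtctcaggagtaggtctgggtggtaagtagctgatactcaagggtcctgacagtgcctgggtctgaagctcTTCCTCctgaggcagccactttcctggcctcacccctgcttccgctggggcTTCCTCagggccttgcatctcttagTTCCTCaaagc
Siglece held 3 matches, between 87 and 11 bases before the start, Cd33 held 1 match 226 bases before it, and no match was found in these letters for Siglech. Of the other members, Cd22 held none and Siglecg held 2 in 1 of its 2 windows, while Siglec1 was not among the promoters used here. Either strand of the core was present in 23.3% of all 32851 windows of this length, and the letters are given as a description only.

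Levels on the CPM scale are counts divided by the library total, with TMM factors to align the libraries. Of the 6 members, 0 passed the test between ages on counts (edgeR's quasi-likelihood test, Benjamini-Hochberg adjusted p under 0.05), and 0.803% of all genes tested passed it. On the log2 scale, Old minus Young, the difference was 1.10 (SE 0.36) for Siglec1 and 1.23 (SE 0.73) for Siglecg, and between 0.01 and 0.11 for Siglech, Cd33, Siglece and Cd22. Only Siglec1 had an unadjusted p under 0.05 (1 of 6 members), against 18.9% of all genes. With limma-voom 0 members passed (0.814% of all genes), and with DESeq2 Siglec1 alone passed, at an adjusted p of 0.0412 (9.07% of all genes with an adjusted p). On TPM, read density per length and library, limma on log2(TPM + 1) called 0 of 6 members, 0 of them with an unadjusted p under 0.05 (0.364% of all genes called).

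**Figure D1:**
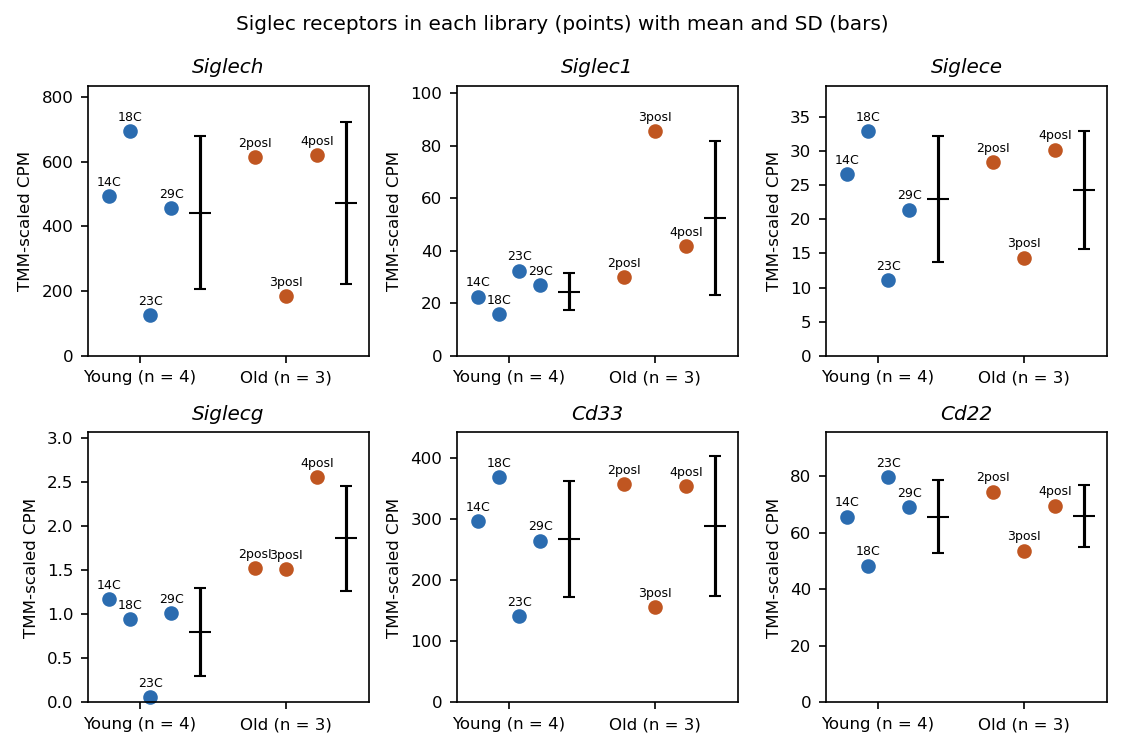
TMM-scaled CPM (vertical axis, starting at 0) of the 6 Siglec receptors in each Young (blue, n = 4) and Old (orange, n = 3) library, with the mean and SD of each age as black bars. Siglech, Cd33 and Siglece were lowest in 23C among Young and in 3posI among Old, and Siglec1 was highest in 3posI at 85.6 CPM.

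Siglech, the microglial DAP12-coupled receptor (ENSMUSG00000051504, GRCm38 chr7:55768178-55778925, plus strand), had the highest level of the 6. It was 494 CPM in 14C, 695 in 18C, 125 in 23C and 457 in 29C of the Young mice. In the Old mice it was 613 CPM in 2posI, 185 in 3posI and 620.1 in 4posI. The ages overlapped over nearly their whole range, since each held 1 low library. The means were 443 ± 236 CPM (SD, n = 4) in Young and 473 ± 249 CPM (SD, n = 3) in Old, a log2 difference of 0.09 (SE 0.56, edgeR adjusted p = 0.945). Leaving out Young 23C, Old 2posI or Old 4posI turned its sign, to -0.21, -0.14 and -0.15.

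Cd33, the myeloid receptor (ENSMUSG00000004609, chr7:43524216-43544428, minus strand), followed the same libraries. Its CPM was 296 in 14C, 367 in 18C, 140.4 in 23C and 264 in 29C, and 356 in 2posI, 156 in 3posI and 353 in 4posI. The means, 267 ± 94.7 CPM (SD, n = 4) in Young and 288 ± 115 CPM (SD, n = 3) in Old, differed by 0.11 on the log2 scale (SE 0.36, edgeR adjusted p = 0.895). On log2(TPM + 1) the difference had the other sign, at -0.17 (SE 0.34, limma adjusted p = 0.819). The CPM difference also turned negative without 23C (-0.10) and without 2posI or 4posI (-0.07 each).

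Siglece, the ITIM-bearing myeloid receptor (ENSMUSG00000030474, chr7:43651070-43660161, minus strand), was lower in level and alike in pattern. Its CPM was 26.6 in 14C, 32.9 in 18C, 11.1 in 23C and 21.4 in 29C, and 28.4 in 2posI, 14.4 in 3posI and 30.2 in 4posI. Again 1 library of each age stood below the rest, and the ages overlapped. The log2 difference was 0.08 (SE 0.37, edgeR adjusted p = 0.928), and it was -0.15 without 23C, -0.05 without 2posI and -0.11 without 4posI.

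**Figure D2:**
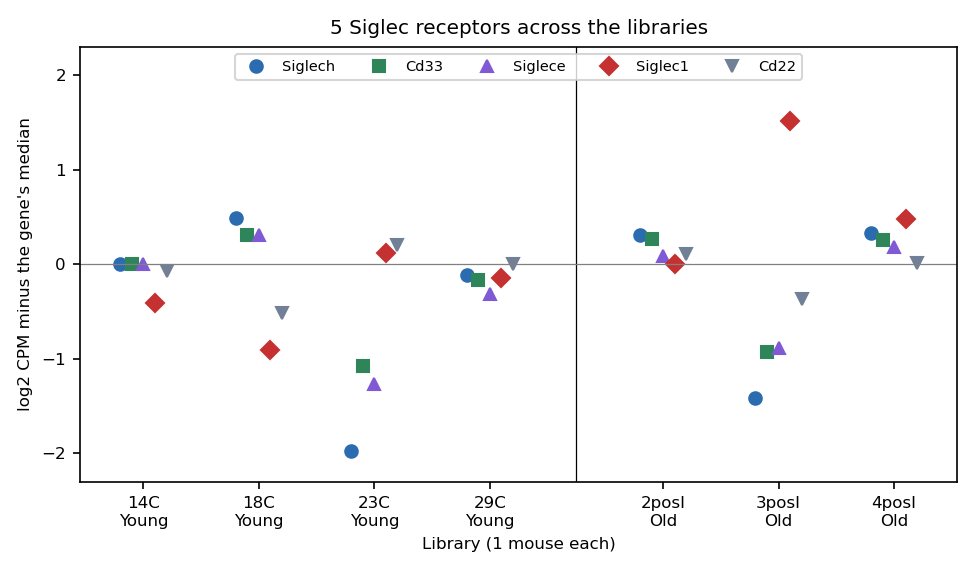
log2 CPM of 5 Siglec receptors minus each gene's median over the 7 libraries (vertical axis), for each library on the horizontal axis, with Young left and Old right of the line. Siglech, Cd33 and Siglece fall in the same 2 libraries, 23C and 3posI, Siglec1 is highest in 3posI, and Cd22 stays near its median.

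Across the 7 libraries the log2 CPM of these 3 genes ran in parallel. Siglech and Siglece had a Pearson r of 0.989 (exact permutation p = 0.000397, the smallest that 7 libraries allow, adjusted over 15 pairs of members 0.00397) and a Spearman rho of 1 (exact permutation p = 0.000397, adjusted 0.00595). Siglech and Cd33 had an r of 0.991 and a rho of 0.964 (exact permutation p = 0.000794 and 0.00278, adjusted 0.00397 and 0.0139). Siglece and Cd33 had an r of 0.988 and a rho of 0.964, with the same exact permutation and adjusted p-values. All permutation tests of correlation were two-sided. The relation did not rest on the 2 low libraries: without 23C and 3posI, the farthest from the median, r over the remaining 5 was 0.935 for Siglech and Siglece, 0.976 for Siglech and Cd33 and 0.940 for Siglece and Cd33. Within ages, after each age's mean was removed, r was 0.989, 0.991 and 0.988. The 2 values of a point come from the same library and share its depth, scaling and cell makeup.

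The amplitude was not the same for the 3 genes. From the lowest to the highest library, Siglech CPM spanned 5.55-fold, Siglece 2.97-fold and Cd33 2.62-fold. Per length, the TPM of Cd33 was 0.718 of that of Siglech in 23C and 0.459 in 3posI, against 0.284 to 0.332 in the other 5 libraries. The TPM of Siglece relative to Cd33 stayed between 0.0880 and 0.123. The within-age SD of log2 CPM was 1.05 for Siglech, 0.65 for Siglece, 0.63 for Cd33, 0.60 for Siglec1 and 0.28 for Cd22, where the median of the 8146 genes with a mean of at least 10 CPM was 0.205. The SD of Siglech was above that of 98.6% of those genes, and those of Siglece, Cd33, Siglec1 and Cd22 above 94.9%, 94.5%, 93.7% and 69.6%.

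Homeostatic microglia markers were lowest in these 2 libraries, and markers of other cell types were high in 3posI. The summed CPM of 10 homeostatic microglia markers was 22954 in 23C and 27399 to 34236 in the other Young libraries. It was 11829 in 3posI, and 24849 and 27089 in the other Old libraries. P2ry12, a purinergic receptor of resting microglia named here after its values were seen, was 441 CPM in 23C and 341 CPM in 3posI and between 1123 and 1767 CPM elsewhere. The 7 monocyte markers, of which Fn1 (fibronectin) had the highest mean over all libraries, summed to 2879 CPM in 3posI, 183 to 492 in Young and 222 and 452 in the other Old libraries, and the 8 markers of border-associated macrophages, of which Ms4a7 had the highest mean, to 1534 CPM in 3posI and 131 to 550 elsewhere. In 3posI itself the highest were Chil3, a chitinase-like protein, at 1426 CPM among the monocyte markers and F13a1, a coagulation factor subunit, at 499.8 CPM among the border macrophage markers, both named after their values were seen. In 23C these sums were 218 and 341 CPM, inside the range of the other Young libraries. All monocyte and border macrophage markers had counts in at least 1 library, and the part of other cells in the Siglec levels was not tested. In bulk samples fewer cells of a type and less RNA per cell cannot be told apart.

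Siglec1, the interferon-inducible macrophage lectin (ENSMUSG00000027322, chr2:131069220-131086765, minus strand), was the member with the smallest p. Its CPM was 22.5 in 14C, 16.0 in 18C, 32.5 in 23C and 27.0 in 29C, and 29.9 in 2posI, 85.6 in 3posI and 41.8 in 4posI. The 2 highest libraries were Old, while Old 2posI lay below Young 23C, so the ages overlapped. The means were 24.5 ± 6.99 CPM (SD, n = 4) in Young and 52.4 ± 29.3 CPM (SD, n = 3) in Old, a 2.14-fold ratio and a log2 difference of 1.10 (SE 0.36, edgeR adjusted p = 0.164). Without 3posI, the library with the high monocyte and macrophage markers, it was 0.55 (SE 0.26, adjusted p = 0.321), and without any other single library between 0.94 and 1.38. On log2(TPM + 1) the difference was 0.83 (SE 0.37, limma adjusted p = 0.277), and 0.41 (SE 0.29, adjusted p = 0.518) without 3posI. Over all 7 libraries Siglec1 had an r of -0.551 with Siglech, -0.540 with Siglece and -0.581 with Cd33 (exact permutation p = 0.276, 0.267 and 0.220, adjusted 0.460 each), and with Siglech it was -0.138 without 23C and 3posI. Within ages, after each age's mean was removed, r was -0.853, -0.862 and -0.907. Without 18C and 3posI, the farthest from the median of Siglec1, r was -0.0059 with Siglece and 0.036 with Cd33.

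A list of 14 interferon-stimulated genes was measured beside Siglec1. The edgeR test called 0 of them, 13 were higher and 1 lower in Old, their median log2 difference was 0.83 against -0.01 over all genes tested, and 7 had an unadjusted p under 0.05 and were higher (10.1% of all genes did). Rsad2, the antiviral protein viperin, was 36.3, 21.9, 43.5 and 64.3 CPM in 14C, 18C, 23C and 29C and 60.3, 157 and 76.1 CPM in 2posI, 3posI and 4posI (log2 difference 1.24, SE 0.40, edgeR adjusted p = 0.163). Oas2, an oligoadenylate synthetase, was 14.9, 9.96, 6.94 and 27.8 CPM in the same Young libraries and 27.0, 42.9 and 34.0 CPM in the Old ones (1.22, SE 0.42, edgeR adjusted p = 0.176). Both were highest in 3posI, as was Siglec1, and among Young libraries highest in 29C, where Siglec1 was 27.0 CPM. The summed CPM of the list was 634 to 1889 in Young and 1531 to 1868 in Old, and overlapped between ages.

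Siglecg, the inhibitory receptor of B cells (ENSMUSG00000030468, chr7:43408204-43418358, plus strand), had the lowest level of the 6. Its expected counts were 54.1, 42.1, 3 and 47 in 14C, 18C, 23C and 29C, and 50.5, 59 and 118 in 2posI, 3posI and 4posI. The 3 counts were in 23C, the library with the highest total. Scaled to CPM these were 1.17, 0.94, 0.059 and 1.01 in Young and 1.52, 1.51 and 2.55 in Old. It was the 1 member of 6 whose CPM did not overlap between ages, as for 17.7% of all genes tested, and on TPM the ages met at 0.63 in 14C and 2posI. The log2 difference of 1.23 (SE 0.73, edgeR adjusted p = 0.397) was 0.84 (SE 0.36, adjusted p = 0.277) without 23C. On log2(TPM + 1) the difference was 0.36 (SE 0.17, limma adjusted p = 0.311). It was 0.24 without 23C and 0.23 without 4posI, and with a pseudocount of 0.1 it was 0.95.

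Cd22, the B cell co-receptor (ENSMUSG00000030577, chr7:30865402-30880342, minus strand), was the steadiest. Its CPM was 65.7, 48.4, 79.5 and 68.9 in 14C, 18C, 23C and 29C, and 74.5, 53.6 and 69.5 in 2posI, 3posI and 4posI. The means were 65.6 ± 12.9 CPM (SD, n = 4) in Young and 65.9 ± 10.9 CPM (SD, n = 3) in Old (log2 difference 0.01, SE 0.19, edgeR adjusted p = 0.991). It was highest in 23C, where Siglech, Cd33 and Siglece were lowest. Of the 8 B cell markers, Pax5 was at 0 in every library and Blk at no more than 3 expected counts, and the summed level of the list was almost all from 2 genes. Cd79b, a signaling chain of the B cell receptor, was 14.6 to 22.2 CPM in Young and 8.61 to 21.2 CPM in Old. Ighm, the IgM heavy chain, was 35.4 CPM in 23C, 71.2 CPM in 3posI and 125 to 270 CPM elsewhere.

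**Figure D3:**
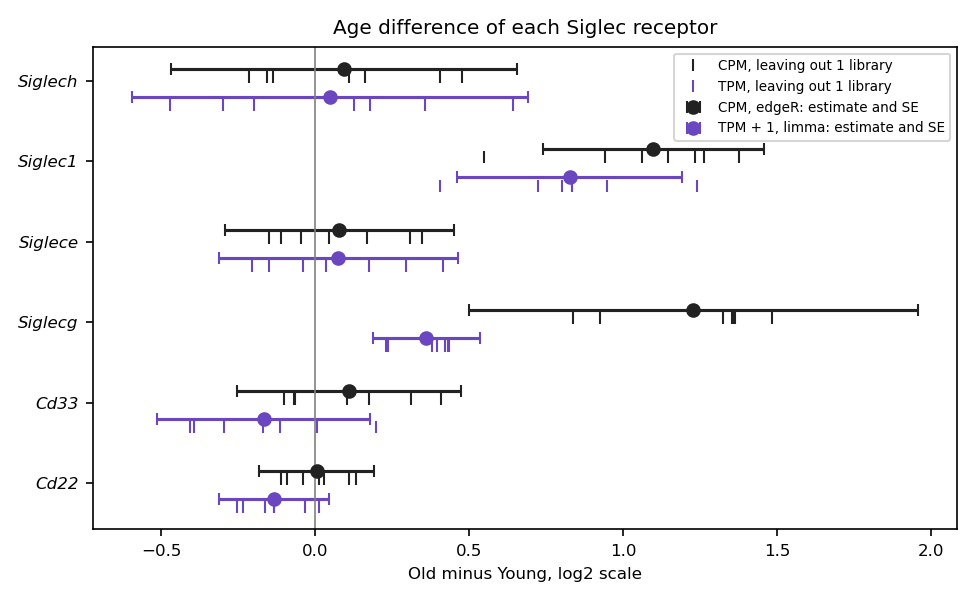
Old minus Young difference on the log2 scale (horizontal axis) for each Siglec receptor, from CPM in edgeR (black) and from TPM + 1 in limma (purple), with SE as bars and the estimate without each library in turn as ticks. Siglec1 and Siglecg lie above 0 in every fit shown, and the other 4 receptors have ticks on both sides of 0 for CPM.

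Per length, the order of the levels was Siglech, Cd33, Cd22, Siglece, Siglec1 and Siglecg. Mean TPM over all libraries (SD, n = 7) was 501 ± 249.8 for Siglech, 164 ± 52.8 for Cd33, 26.0 ± 4.52 for Cd22, 18.5 ± 6.93 for Siglece, 8.71 ± 5.65 for Siglec1 and 0.586 ± 0.321 for Siglecg. Siglech was above Cd33, Cd33 above Cd22 and Siglec1 above Siglecg in 7 of 7 libraries. The middle neighbours did not keep their order: Cd22 was above Siglece in 6 of 7 libraries and Siglece above Siglec1 in 6 of 7. In 3posI Siglec1, at 20.6 TPM, stood next after Cd33, above Cd22 at 19.6 and Siglece at 10.8. Siglech made up 48.3% of the summed TPM of the 6 members in 23C, 57.8% in 3posI and 70.0% to 73.6% in the other 5 libraries, and Cd33 34.7%, 26.5% and 20.7% to 23.2%. The sum itself was 295 TPM in 23C and 329 TPM in 3posI, against 707 to 1092 TPM elsewhere.

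RSEM also gives each gene an effective length, which depends on how reads were divided among its transcripts. Cd33 had effective lengths of 2245, 2252, 1939 and 2120 bases in 14C, 18C, 23C and 29C and of 2501, 2261 and 2476 bases in 2posI, 3posI and 4posI, longer in every Old library. Siglece had 1768, 1739, 1740 and 1800.1 bases in Young and 1644, 1691 and 1735 bases in Old, shorter in every Old library. The 2 genes were 2 of 6 members whose lengths did not overlap between ages, as for 19.4% of the 11654 genes tested whose effective length varied. The annotation lists 6 Cd33 transcripts of 402 to 5728 bases, of which 4 are protein coding, and 2 Siglece transcripts of 693 and 1849 bases. TPM divides by this length and is also scaled within each library without TMM factors. By mean CPM, Cd33 in Old was 1.08-fold of Young, by mean TPM 0.906-fold, and its mean effective length was 1.13-fold. For Siglech, whose mean effective length was 1.00-fold of Young, the folds by mean CPM and mean TPM were 1.07 and 1.01. Levels of single transcripts were not analysed here.

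**Figure D4:**
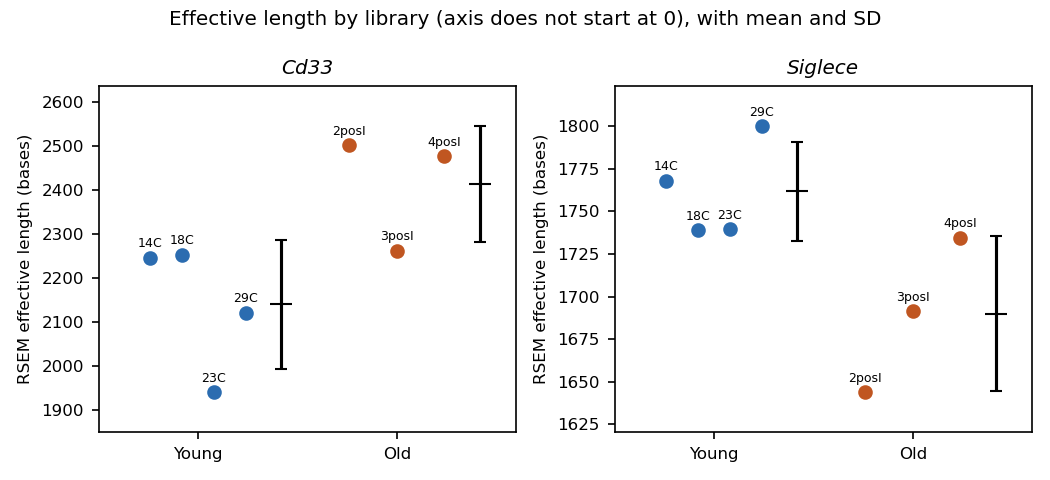
RSEM effective length in bases (vertical axis, not starting at 0) of Cd33 and Siglece in each Young (blue) and Old (orange) library, with mean and SD as black bars. Cd33 lies between 1939 and 2252 bases in Young and 2261 and 2501 in Old, and Siglece between 1739 and 1800.1 in Young and 1644 and 1735 in Old.

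Of the members, 5 lie on chromosome 7 and Siglec1 on chromosome 2. Siglecg, Cd33 and Siglece form a group in which the annotated genes are 106 and 107 kb apart, with Siglecf 48.7 kb before Siglecg. Cd22 lies 18.8 kb from Mag, the Siglec of myelin-forming cells, and Siglech lies apart from both groups. Siglecg, the neighbour of Cd33 and Siglece, had an r of 0.710 with Siglece and 0.650 with Cd33 over the 7 libraries (exact permutation p = 0.154 and 0.199, adjusted 0.460 each), and 0.709 with Siglech (exact permutation p = 0.173, adjusted 0.460). Without the 2 libraries farthest from the median of the first gene of each pair, 23C among them, these were 0.285, -0.437 and 0.267. The reads carry no strand, and the only annotated gene overlapping a member, Gm29439 antisense to Cd22, was at 0 CPM.

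The Siglec genes outside the 6 members gave 0 calls of 2 tested. Siglecf, an ITIM-bearing receptor of eosinophils and some macrophages, was 26.3, 39.3, 12.04 and 24.2 CPM in 14C, 18C, 23C and 29C and 29.3, 11.9 and 29.3 CPM in 2posI, 3posI and 4posI (log2 difference -0.11, SE 0.42, edgeR adjusted p = 0.905). Its lowest libraries were those of Siglech, Cd33 and Siglece, and its Pearson r of log2 CPM with these 3 was 0.972, 0.979 and 0.969. The parallel course was thus not limited to the members. Mag was 13.4 to 23.9 CPM in Young and 11.4 to 28.3 CPM in Old (-0.01, SE 0.31, edgeR adjusted p = 0.994). Its r with Siglech, Cd33 and Siglece was 0.897, 0.914 and 0.855. The r values of Siglecf and Mag are a description and were not tested. Siglec15 had 1 expected count in 23C and none in the other libraries.

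The machinery around the receptors was measured through 4 further lists. Of the 54 genes tested in these and the preceding lists, edgeR called 0, 35 were higher and 19 lower in Old, and 10 higher and 4 lower genes had an unadjusted p under 0.05 (10.1% and 8.79% of all genes). limma-voom called 0 of them and DESeq2 3, which were St8sia6, Rsad2 and Oas2. Of 10 adaptors and phosphatases, 5 were higher and 5 lower, with a median log2 difference of 0.01. The smallest p-values were those of Cbl, a ubiquitin ligase (0.55, SE 0.20, edgeR adjusted p = 0.201), and Grb2, a signaling adaptor (0.39, SE 0.17, adjusted p = 0.269). Tyrobp, the partner of Siglech, named after its values were seen, was 1649 to 2206 CPM in Young and 1706 to 2137 CPM in Old, a 1.34-fold span over libraries in which Siglech spanned 5.55-fold.

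Among genes that make, attach and remove the ligand, no call was made either. Of 8 genes of sialic acid synthesis and transport, 6 were higher and 2 lower. Gne, the enzyme that starts sialic acid synthesis, was 16.3 to 19.2 CPM in Young and 12.4 to 15.9 CPM in Old (log2 difference -0.38, SE 0.14, edgeR adjusted p = 0.207). Nans, the sialic acid synthase, was 41.6 to 55.7 CPM in Young and 54.5 to 70.7 CPM in Old (0.40, SE 0.14, adjusted p = 0.187). The 2 genes of the pathway thus had differences of opposite sign, neither past the threshold.

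Of 14 sialyltransferases tested, 7 were higher and 7 lower. St8sia6, which forms disialic acid ends, was 5.59, 7.56, 2.02 and 4.34 CPM in 14C, 18C, 23C and 29C and 30.2, 6.41 and 16.7 CPM in 2posI, 3posI and 4posI. The ages overlapped through 18C and 3posI (log2 difference 1.87, SE 0.54, edgeR adjusted p = 0.132), and DESeq2 gave an adjusted p of 0.00853. St6galnac3, which adds sialic acid to N-acetylgalactosamine, was below 1 CPM throughout, at 0.40 to 0.94 CPM in Young and 0, 0.28 and 0.065 CPM in 2posI, 3posI and 4posI (edgeR adjusted p = 0.195). Of 6 sialidases and esterases, 4 were higher and 2 lower, and the smallest p-values belonged to the sialidase Neu3 (-0.38, SE 0.30, adjusted p = 0.521) and the sialic acid acetyltransferase Casd1 (0.17, SE 0.17, adjusted p = 0.618).

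The genes most like each member were taken by Pearson r of log2 CPM over the 7 libraries among the 8146 genes with a mean of at least 10 CPM, as a description. For Siglech they were Zfp710 (r = 0.997), Parp8 (0.994) and Slc2a5 (0.991), a fructose transporter. For Cd33 they were Pld1 (0.997), Zfp710 (0.997) and Col27a1 (0.993), and for Siglece Helz (0.991), Zfp710 (0.990) and Tgfbr1 (0.990), a receptor of TGF-beta. Zfp710 was on the list of each of the 3 genes that ran in parallel. The r of these 3 genes with each other was 0.988 to 0.991, so a shared entry is no separate result. Siglec1 was most like Inf2 (0.991), Tank (0.982) and Ndufv1 (0.978), and Cd22 most like Nup85 (0.970), Dtx4 (0.958) and Man1c1 (0.955). Siglecg was most like AY036118 (0.987), Polr2a (0.975) and Tlr9 (0.968), although Siglecg itself was at a mean of 1.25 CPM. The log2 CPM of Siglecg minus its median was -3.87 in 23C and -0.31 to 1.11 elsewhere, and these r values were not computed without 23C.

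The sort was checked against further marker lists. Total expected counts were 36574083 to 53002386 per library. The plasmacytoid dendritic cell list, which bears on Siglech, summed to 155 to 175 CPM in Young and 179 to 224 CPM in Old, and these sums did not overlap between ages. Most of it was Tcf4 (140.3 to 185 CPM), while Klk1 was at 0 and Dntt at no more than 3 expected counts in every library. Of its 5 genes tested, edgeR called 0 and 5 were higher in Old. An unadjusted p under 0.05 was found for 3 of them, all higher (10.1% of all genes did so). These 3, named after their values were seen, did not overlap between ages, as for 17.7% of all genes tested. Cox6a2, a muscle-type subunit of cytochrome c oxidase, was 8.43 to 14.2 CPM in Young and 18.2 to 37.8 CPM in Old (log2 difference 1.14, SE 0.27, edgeR adjusted p = 0.0873). Runx2 was 0.065 to 0.65 CPM in Young and 0.66 to 6.39 CPM in Old (adjusted p = 0.133), and Spib at most 0.065 CPM in Young and 0.22 to 0.69 CPM in Old (adjusted p = 0.131). Their part in the Siglech levels, which did overlap between ages, was not tested. The lists of conventional dendritic cells (led by Ccr7), neutrophils (Csf3r), T cells (Cd4) and oligodendrocytes (Cnp) summed to 6.12 to 61.1, 174 to 412, 1.46 to 11.7 and 99.6 to 142 CPM. For the first of these, the 61.1 CPM belonged to 3posI, where Ccr7 was 44.8 CPM and no more than 3.31 CPM elsewhere. The sums of this list did not overlap between ages (6.12 to 9.66 CPM in Young, 13.8 to 61.1 CPM in Old), but its genes were split. Of its 6 genes tested, edgeR called 0, and 3 were higher and 3 lower in Old. An unadjusted p under 0.05 was found for 3 higher genes and 1 lower gene (10.1% and 8.79% of all genes). The neutrophil sum overlapped between ages, and most of it was Csf3r (171 to 323 CPM). Of its 7 genes edgeR called 0, 6 were higher and 1 lower in Old, and 2 higher genes had an unadjusted p under 0.05 (10.1% of all genes did). Cxcr2, named after its values were seen, was at most 0.73 CPM in Young and 0.89, 7.95 and 0.86 CPM in 2posI, 3posI and 4posI (edgeR adjusted p = 0.142). The T cell sum overlapped, at 1.46 to 10.8 CPM in Young and 4.40 to 11.7 CPM in Old, and most of it was Cd4 in 6 of 7 libraries. Of its 7 genes edgeR called 0, and 7 were higher in Old, with a median log2 difference of 3.94. Of these, 6 had an unadjusted p under 0.05 and were higher (10.1% of all genes did). Cd8a, named after its values were seen, was at most 0.020 CPM in Young and 0.30, 0.26 and 0.52 CPM in 2posI, 3posI and 4posI (edgeR adjusted p = 0.0565).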

How the data were processed

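RNA of Bodipy+ microglia was amplified by a Smart-seq2 protocol and sequenced without strand, per the labels. The authors trimmed reads with skewer after FastQC 0.11.5 (submitters' processing notes), aligned them with STAR (GRCm38) and estimated gene levels by RSEM. For STAR and RSEM, no version is named in what was read here. The deposited expected counts (estimated counts, not normalized) were rounded. The deposited TPM values, scaled by the authors within each library, were used as they stand, and the effective length that RSEM wrote to the same deposited files served as a measurement and as an offset. FPKM was not used. No molecular identifiers are named, so PCR copies count as reads.

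The filter kept genes with more than 10 expected counts in any library and dropped X, Y and mitochondrial genes. In R 4.3.3, edgeR 4.0.16 gave TMM factors (0.952 to 1.05), CPM, and the quasi-likelihood test of age, with no other term because neither batches nor pairs are labelled. SE is the log2 fold change over the root of its F statistic. limma 3.58.1 tested log2(TPM + 1). Log2 CPM had a prior count of 1. Alternatives were limma-voom, DESeq2 1.42.0, other scaling factors and filters, an effective-length offset and each library left out. Scripts were tested on simulated data.

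Coordinates and overlaps came from GENCODE vM21, which may differ from the authors' release. 224 identifiers were not in it. Promoter letters are from RefSeq. Members, taken by symbol, and lists were chosen with earlier results of these data known. Named are all members, the 2 genes with the smallest p of each pathway list and any called, the top gene of each marker list by mean CPM (1 such gene is not reported here), and 3 genes most like each member. Each library is 1 mouse, and p-values measure the spread between mice. Other samples of the study were not analysed here.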

Additional observations from a re-analysis of the deposited data

Results flagged for a closer look

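Of 50 sets of values examined, in the 4 Young libraries, 2 had a library far from the other 3 by Dixon's ratio (the gap to the nearest library over the whole range, judged by its 95% critical value), where chance would give about 2.5. Both lay in 14C. Fn1 was 405 CPM there and 166 to 199 CPM in the other 3 (ratio 0.862). The monocyte marker list, which holds Fn1, summed to 492 CPM in 14C and 183 to 222 CPM in the others (ratio 0.874). Neither concerns a Siglec receptor directly, and Siglec1 was 22.5 CPM in 14C. The 3 Old libraries were too few for this check, so that the values of 3posI were not tested by it.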

How the results depend on the processing

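Over 27 results and 305 values under alternatives, 266 kept their direction and side of the threshold. Of the 39 others, 33 turned their sign, all for differences under 0.17 on the log2 scale and none past the threshold. With DESeq2, 1 member was called in place of 0 (Siglec1, 1.11) and 3 pathway genes in place of 0, with 1399 calls over all genes against 141 with edgeR. The cause was not tested. Leaving out 1 library at a time, the log2 CPM difference ran from -0.21 to 0.48 for Siglech, -0.15 to 0.35 for Siglece, -0.10 to 0.41 for Cd33 and -0.11 to 0.13 for Cd22, and that of log2(TPM + 1) from -0.47 to 0.64, -0.20 to 0.42, -0.41 to 0.20 and -0.25 to 0.014. Siglecf ran from -0.35 to 0.21 and Mag from -0.34 to 0.27. The effective-length offset gave -0.049 for Cd33, -0.041 for Cd22 and 0.016 for Mag. With this offset Cbl was 0.088 (0.55 in the main fit), Grb2 0.20 (0.39) and Gne -0.24 (-0.38). Nans was 0.41 (0.40) and Oas2 1.29 (1.22) with it. Cd22 was -0.026 with upper-quartile factors and -0.017 without the filter, and Mag was 0.00086 with DESeq2. The differences of Siglec1 and Siglecg stayed above 0 in all alternatives run, at 0.55 to 1.38 and 0.84 to 1.86 on CPM. No paired analysis was possible because the ages share no replicate number. Siglecg had 3 expected counts in 23C, which has the highest total, so that counting error is large for that value.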
